A study of Sus scrofa with 12 samples.

Results

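The transcripts described here encode the factors that start, extend and end protein synthesis in pig embryos. They are the genes whose symbol begins with EIF1 to EIF6, EEF1 or EEF2, without the transport protein EIF4ENIF1, together with ETF1, GSPT1 and GSPT2. The rule found 59 of the 29329 genes in the count table, and 57 of them passed the filter on low counts among 17995 genes tested. The symbol rule also takes in the kinases that act on eIF2, the inhibitors of eIF4E and the enzymes that modify eEF1A and eEF2.

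The libraries came from in vitro fertilised porcine embryos, each made from a pool of embryos by SMART-seq, a method that amplifies poly(A) RNA from few cells. There were 4 groups of 3 libraries, named after their titles, con-2c and con-4c for the controls and si-2c and si-4c for the knockdown. The si groups were treated with si-CCNB2, a small interfering RNA against cyclin B2, a partner of the kinase that drives entry into mitosis. The con groups are labelled blank control, while the study's methods call them normal embryos and also the NC (negative control) group of si-CCNB2, and list a negative control RNA among the reagents for microinjection. Whether these embryos received it is not settled by the sources used here. The title and the tissue label disagree on the stage in all 12 libraries: the libraries titled 2c carry a 4-cell tissue label, and those titled 4c a 2-cell label. The titles name the groups below, with no claim about which stage label is right. A pool does not separate embryos that differ in their response. The p-values measure the spread between pools.

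As background, an mRNA is translated after eIF4E binds its cap, the scaffold eIF4G and the helicase eIF4A prepare its start, and the small ribosomal subunit arrives with eIF3, eIF1, eIF1A and a ternary complex of eIF2, GTP and initiator tRNA. The exchange factor eIF2B recharges eIF2 with GTP, and stress kinases block this step by phosphorylating eIF2. The elongation factors eEF1A and eEF2 then bring in aminoacyl-tRNA and move the ribosome, and eRF1 and eRF3, encoded by ETF1 and the GSPT genes, release the finished chain. A cleaving mammalian embryo lives at first on proteins and mRNAs stored in the egg, and it later replaces them from its own genome. The level of such a transcript at a given time can thus reflect loss of stored copies, new synthesis or both. These libraries count poly(A) RNA, so a change in capture could not be told apart from either. EIF1AX, an X-linked gene for eIF1A, is often used as a sign that the embryonic genome is active.

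The libraries held 27785233 to 39510908 counted reads. In con-2c and si-4c 18034 to 18819 genes were detected and the TMM factors were 0.852 to 0.962, against 21181 to 23279 genes and factors of 1.06 to 1.21 in con-4c and si-2c, the same division of the groups as in many of the results below. The part of this difference in the results was not tested. CCNB2 itself stood at 464 ± 21.7 CPM (counts scaled to a common library size with TMM factors, mean ± SD, n = 3) for con-2c, 475 ± 41.9 for con-4c, 22.7 ± 5.58 for si-2c and 42.6 ± 3.65 for si-4c, and its log2 fold change was -4.36 from con-2c to si-2c and -3.48 from con-4c to si-4c. Of the embryo and oocyte markers, 9 of 12 were in the table and all 9 reached 1 CPM in every group. Their sum was 3961.5 to 4421.8 CPM in con-2c and 3699.6 to 3824.7 in si-4c, against 2503.4 to 2569.5 in con-4c and 2760.2 to 2952.6 in si-2c, which is again that division. Of the cumulus markers, 10 of 12 were in the table and their sum, almost all of it VCAN, was 298.07 to 372.9 CPM in con-2c, 298.73 to 307.23 in si-4c, 183.88 to 191.82 in con-4c and 177.85 to 204.08 in si-2c. CYP11A1, FOXL2 and HAS2 were at 0 in con-2c, si-2c and si-4c, while in con-4c none of the 10 was at 0. In con-4c 3 of the 10 had a group mean of at least 1 CPM, against 2 in each other group. Of the sperm markers, 4 of 9 were in the table, and none of these had a group mean of 1 CPM in any group. The part of either marker sum in the results was not tested. In bulk samples fewer cells of a type and less RNA per cell cannot be told apart.

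The 59 factors took 0.817% ± 0.0312 of all counts for con-2c, 1.08% ± 0.0122 for con-4c, 1.06% ± 0.0596 for si-2c and 0.847% ± 0.0159 for si-4c (mean ± SD, n = 3). After TMM scaling, which sets the libraries on a common level of the bulk of genes, the sums were 9225 ± 750.5, 10106 ± 271.5, 9097 ± 816.8 and 9446 ± 376.7 CPM in the same order. On this scale the ranges of all 4 groups overlapped. EIF1 and EIF5B together took 53.1% to 59.9% of the factors' counts in each library, and without them the sum was 4140 ± 184, 4510 ± 118.5, 3865 ± 79.9 and 4156 ± 88.3 CPM. Without them the con-4c libraries (4376.3 to 4601.8) lay above all con-2c and si-4c libraries (3969.7 to 4335). The si-2c libraries (3801.3 to 3954.9) lay below all of these, and con-2c and si-4c overlapped.

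The control groups were compared to ask which factors differ between the title stages without knockdown. From con-2c to con-4c, 16 of 57 factors (28.1%) rose and 1 (1.75%) fell, where a gene was called when its Benjamini-Hochberg adjusted p in edgeR's quasi-likelihood test over all 17995 genes was below 0.05 and its log2 fold change at least 1 in size. Over all genes 14.4% were called higher and 3.25% lower. With no fold threshold 22 factors (38.6%) were higher and 11 (19.3%) lower, beside 20.7% and 15.1% of all genes, and with library totals in place of TMM 18 (31.6%) were called higher and 0 lower, beside 17.9% and 1.27%. The median log2 fold change was 0.24 for the factors and 0.11 for all genes. Library totals moved these medians to 0.50 and 0.38, and a minimum of 1 CPM in 3 libraries, chosen after seeing the data and passed by 52 factors, moved them to 0.25 and 0.03. Without con-2c replicate 2 both were 0.14, without con-2c replicate 3 they were 0.18 and 0.16, and without con-4c replicate 3 they were 0.17 and 0.13. Of the 40 factors that were not called, 28 had a 95% interval of the log2 fold change within 1 of 0.

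The 16 that rose include genes of every role except the modifiers of elongation factors. They are EIF1AX at the start codon, EIF3A, EIF3F and EIF3G of eIF3, EIF4B and EIF4G1 at the cap, EIF2B2 and EIF2B5 of the exchange factor, the kinase gene EIF2AK3, the inhibitor gene EIF4EBP3, EIF6, the elongation genes EEF1B2, EEF1E1 and EEF2, and the release factor genes ETF1 and GSPT1. The factor that fell was EIF4E3, a cap-binding relative of eIF4E. Of the 10 factors whose mean over the libraries was above 100 CPM, 0 were called in this comparison, where all genes of that range were called higher in 2.46% and lower in 6.49%. Below 10 CPM 7 of 19 were called higher, beside 18.3% of all genes. Between 10 and 100 CPM 9 of 28 were called higher and 1 lower, where all genes of that range were called higher in 8.53% and lower in 4.44%.

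The knockdown was compared with the control within each title. From con-2c to si-2c 9 of 57 factors (15.8%) rose and none fell, beside 10.7% and 1.8% of all genes. The factors called were EIF1AX, EIF6, EEF1B2, ETF1, EIF3G, EIF4G1, EIF2B2, EIF2AK3 and EIF4EBP3. At an unadjusted edgeR p under 0.05 there were 18 higher and 17 lower, beside 22.8% and 15.8% of all genes, and DESeq2 called 9 higher and 0 lower, beside 12.6% and 1.83%. Scaling to library totals gave 15 higher (26.3%) and 0 lower, beside 16.8% and 0.322% of all genes. With no fold threshold 17 (29.8%) were higher and 14 (24.6%) lower, beside 16.6% and 12.3%. The median was 0.06 for the factors and 0.12 for all genes, or 0.45 and 0.52 with library totals. With the minimum of 1 CPM in 3 libraries they were 0.05 and 0.04, which removes that order. The factors' median turned to -0.03 without con-2c replicate 2 and to -0.01 without si-2c replicate 1 or 2, and was 0.01 without con-2c replicate 1 and 0.11 without si-2c replicate 3.

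From con-4c to si-4c the direction was the other way: 2 factors (3.51%) rose and 10 (17.5%) fell, beside 3.12% and 15.8% of all genes. The 10 that fell were EIF1AX, EIF6, EEF1B2, EIF3G, ETF1, EEF1E1, EIF3A, EIF4G1, EIF2B2 and EIF2AK3, and the 2 that rose were EIF2B3 and EIF4E3. Scaling to library totals gave 0 higher and 15 lower (26.3%), beside 1.28% and 18.7% of all genes. With no fold threshold 11 (19.3%) were higher and 17 (29.8%) lower, beside 15.1% and 21.7%. The median was -0.17 for the factors and -0.11 for all genes, or -0.43 and -0.37 with library totals and -0.21 and -0.03 with the minimum of 1 CPM in 3 libraries. Without si-4c replicate 1 the medians were -0.28 and -0.16, and without si-4c replicate 3 they were -0.15 and -0.16, which turns their order. The si-4c group is set against con-4c here and against other groups below, so these comparisons share libraries and their counts are given side by side only.

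**Figure D1:**
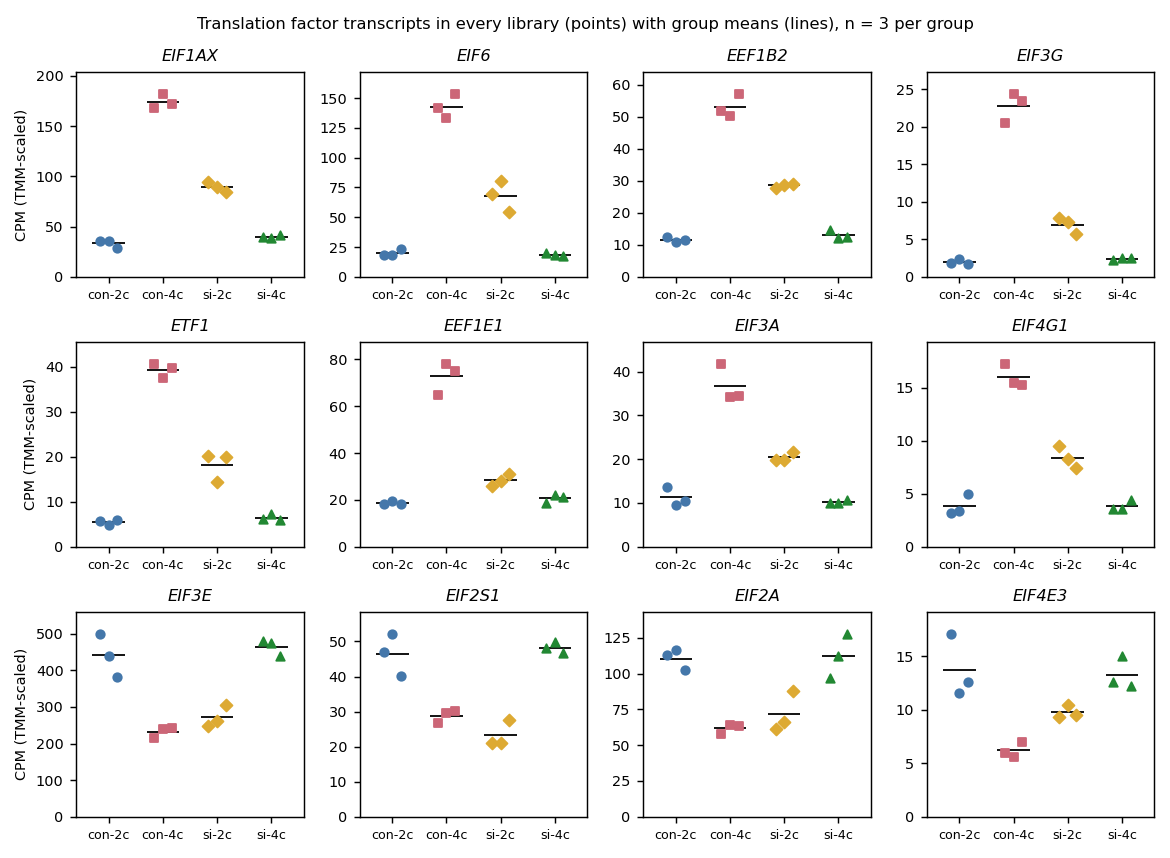
CPM of 12 factors in every library. Points are libraries, horizontal lines are group means (n = 3), and each panel has its own axis from 0. In the upper 8 panels con-4c is highest and si-2c next, and in the lower 4 (EIF3E, EIF2S1, EIF2A and EIF4E3) con-4c and si-2c lie below con-2c and si-4c.

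Among the factors of the start codon and the ternary complex, EIF1AX (ENSSSCG00000032223, chrX:16429625-16449581, Sscrofa11.1 as given by RefSeq) encodes eIF1A, which holds the scanning ribosome at the start codon. Its level was 35.2, 35.4 and 29.0 CPM for the con-2c libraries, 168, 182 and 172 for con-4c, 93.9, 89.7 and 84.6 for si-2c and 39.95, 38.6 and 41.7 for si-4c. The 4 groups did not overlap: con-4c was highest in every library, si-2c stood between it and the others, and con-2c and si-4c were lowest. The log2 fold change was 2.39 (SE 0.09, adjusted p = 3.1e-12) from con-2c to con-4c, 1.43 (SE 0.09, adjusted p = 3.51e-09) from con-2c to si-2c and -2.12 (SE 0.09, adjusted p = 1.33e-11) from con-4c to si-4c, each in edgeR. Between si-2c and con-4c it was -0.96 (SE 0.09, adjusted p = 3.92e-06), which is below the fold threshold.

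EIF1AY, the Y-linked copy of the same factor, was counted 2 times over the con-2c libraries, 6 times over con-4c and 0 times in both si groups, so it was not tested. Reads of nearly identical copies may have been split or lost in counting, which bears on EIF1AX and EIF1AY and likewise on EIF1 and EIF1B. EIF1, a monitor of start codon choice, stood at 1848 ± 229.6 CPM for con-2c, 2873 ± 74.6 for con-4c, 2317 ± 223 for si-2c and 1929 ± 206 for si-4c. From con-2c to con-4c its log2 fold change was 0.64 (SE 0.10, adjusted p = 7.57e-05) in edgeR, under the fold threshold, and for EIF1B it was 0.20 (SE 0.09, adjusted p = 0.103). EIF1AD, an eIF1A domain protein of the nucleus, had 0.63 (SE 0.12, adjusted p = 0.000522).

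EIF2S1 (eIF2α, the subunit that stress kinases phosphorylate) was measured at 46.9, 52.2 and 40.2 CPM for the con-2c libraries, 26.9, 29.6 and 30.04 for con-4c, 21.1, 21.1 and 27.7 for si-2c and 48.1, 49.9 and 46.7 for si-4c. Here con-2c and si-4c were high and con-4c and si-2c low in every library. The gene rose from si-2c to si-4c, with a log2 fold change of 1.05 (SE 0.12, adjusted p = 4.65e-06) in edgeR. Leaving out si-2c replicate 1 or 2 brought this to 0.98, under the fold threshold, and scaling to library totals brought it to 0.66. From con-2c to si-2c it was -0.995 (SE 0.12, adjusted p = 8.23e-06), just short of the fold threshold. EIF2S2, which encodes the β subunit, was lower in con-4c than con-2c by a smaller step, -0.38 (SE 0.08, adjusted p = 0.00191).

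EIF2A, an initiator tRNA carrier that is not a subunit of eIF2, stood at 113, 116 and 103 CPM for the con-2c libraries, 58.0, 64.1 and 63.4 for con-4c, 61.0, 66.1 and 88.0 for si-2c and 97.1, 112 and 128 for si-4c. As for EIF2S1, every con-2c and si-4c library was above every con-4c and si-2c library. The log2 fold change was -0.84 from con-2c to con-4c, -0.62 from con-2c to si-2c and 0.86 from con-4c to si-4c, none of which reached the fold threshold. EIF5B, the GTPase that joins the ribosomal subunits, stood at 3237 ± 376 CPM for con-2c, 2723 ± 115 for con-4c, 2915 ± 598 for si-2c and 3361 ± 145 for si-4c, and its log2 fold change lay at -0.49 to -0.01 (95% interval) from con-2c to con-4c. That interval uses normal quantiles and is narrower than one from the test, and EIF5B was not called there. EIF2D, which takes part in ribosome recycling and reinitiation, was under 3 CPM in the mean of every group and was called in none of the comparisons.

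The 4 measured subunits of the eIF2B exchange factor differed in direction. EIF2B2 (the β subunit) stood at 1.43, 1.55 and 1.45 CPM for the con-2c libraries, 4.67, 4.94 and 6.37 for con-4c, 5.58, 3.804 and 4.10 for si-2c and 0.570, 1.13 and 0.896 for si-4c. EIF2B2 rose from con-2c to con-4c, 1.85 (SE 0.28, adjusted p = 5.11e-05), and from con-2c to si-2c, 1.61 (SE 0.27, adjusted p = 0.000274), and fell from con-4c to si-4c, -2.62 (SE 0.29, adjusted p = 1.89e-06), in edgeR. EIF2B3, the γ subunit, read 13.8, 15.6 and 12.8 CPM for the con-2c libraries, 9.38, 6.73 and 9.20 for con-4c, 8.16, 10.6 and 9.46 for si-2c and 17.8, 17.2 and 17.5 for si-4c. The con-4c and si-2c libraries were below every con-2c and si-4c library for this gene, opposite to EIF2B2. EIF2B3 rose from con-4c to si-4c, 1.05 (SE 0.15, adjusted p = 3.96e-05), a call that library totals (0.79) and leaving out con-4c replicate 2 (0.92) took below the fold threshold.

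EIF2B5, the catalytic ε subunit, was low at 0.375 ± 0.194 CPM for con-2c, 1.75 ± 0.397 for con-4c, 1.01 ± 0.726 for si-2c and 0.732 ± 0.193 for si-4c. It was called higher from con-2c to con-4c, 2.21 (SE 0.65, adjusted p = 0.0133), and leaving out con-2c replicate 1 gave an adjusted edgeR p of 0.0584. EIF2B4 was at 1.06 to 1.55 CPM in the group means and was not called. The low counts of EIF2B2, EIF2B4 and EIF2B5 make their log2 fold changes less precise than those of the factors above 10 CPM.

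Of the 4 eIF2 kinase genes, EIF2AK2 (PKR, which responds to double-stranded RNA) and EIF2AK4 (GCN2, which responds to uncharged tRNA) were called in no comparison. EIF2AK2 stood at 75.7 ± 10.6 CPM for con-2c, 68.6 ± 7.91 for con-4c, 65.0 ± 8.62 for si-2c and 74.3 ± 3.99 for si-4c, and EIF2AK4 at 71.6 ± 3.40 CPM for con-2c, 77.3 ± 4.18 for con-4c, 75.5 ± 7.12 for si-2c and 70.5 ± 5.14 for si-4c. From con-2c to con-4c their 95% intervals of the log2 fold change were -0.38 to 0.09 and -0.06 to 0.29.

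EIF2AK3 (PERK, the kinase of the endoplasmic reticulum stress response) read 0, 0.208 and 0.123 CPM for the con-2c libraries, 2.50, 2.55 and 2.05 for con-4c, 2.02, 1.61 and 1.91 for si-2c and 0.180, 0 and 0.209 for si-4c. It was near 0 in con-2c and si-4c and above 1 CPM in every con-4c and si-2c library. The log2 fold change was 4.36 (SE 0.76, adjusted p = 0.000219) from con-2c to con-4c, 4.00 (SE 0.75, adjusted p = 0.000623) from con-2c to si-2c and -4.16 (SE 0.74, adjusted p = 0.000288) from con-4c to si-4c in edgeR. EIF2AK1, which encodes the heme-regulated kinase, had 1.91 from con-2c to con-4c with an adjusted edgeR p of 0.078, and was not called.

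Of the 11 eIF3 subunits in the table, 3 were called from con-2c to con-4c, all of them higher, beside 14.4% of all genes. EIF3G, which encodes a subunit that takes part in scanning, stood at 1.88, 2.35 and 1.69 CPM for the con-2c libraries, 20.6, 24.4 and 23.4 for con-4c, 7.89, 7.34 and 5.69 for si-2c and 2.22, 2.46 and 2.45 for si-4c. Its con-4c libraries were above all the others, and its si-2c libraries above all of con-2c and si-4c. The log2 fold changes were 3.53 (SE 0.19, adjusted p = 2.12e-10) from con-2c to con-4c, 1.82 (SE 0.18, adjusted p = 1.05e-06) from con-2c to si-2c and -3.26 (SE 0.18, adjusted p = 4.25e-10) from con-4c to si-4c. It also fell from con-4c to si-2c, -1.71 (SE 0.17, adjusted p = 7.55e-06) in edgeR. EIF3A, the scaffold on which the complex is built, read 13.7, 9.54 and 10.5 CPM for the con-2c libraries, 41.8, 34.1 and 34.4 for con-4c, 19.9, 19.8 and 21.6 for si-2c and 9.99, 9.89 and 10.7 for si-4c.

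EIF3A rose from con-2c to con-4c, 1.71 (SE 0.14, adjusted p = 4.4e-08), and fell from con-4c to si-4c, -1.85 (SE 0.14, adjusted p = 1.71e-08), in edgeR. From si-2c to si-4c it also fell, -1.01 (SE 0.14, adjusted p = 2.83e-05), but 3 of the 12 fits without 1 library (without si-2c replicate 3, si-4c replicate 1 or si-4c replicate 2) placed it at -0.96, -0.99 and -0.98. EIF3E, which encodes a further subunit, was the reverse of these: 499.8, 440.5 and 383 CPM for the con-2c libraries, 215, 239 and 242 for con-4c, 247, 263 and 305 for si-2c and 479.7, 474 and 438 for si-4c. All con-2c and si-4c libraries were above all con-4c and si-2c libraries. Its log2 fold change of 0.999 (SE 0.10, adjusted p = 6.22e-07) from con-4c to si-4c lay just short of the fold threshold.

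EIF3M, the eIF3 gene with the most reads, stood at 534 ± 51.0 CPM for con-2c, 649.8 ± 30.5 for con-4c, 487 ± 40.1 for si-2c and 561 ± 45.7 for si-4c, and was called in no comparison. EIF3H, which encodes another subunit, stood at 50.6 ± 2.97 CPM for con-2c, 60.5 ± 5.13 for con-4c, 38.7 ± 6.86 for si-2c and 49.6 ± 3.18 for si-4c. From con-4c to si-2c 7 of 11 eIF3 subunits had an edgeR adjusted p below 0.05 in the lower direction at any fold, EIF3H among them at -0.64 (SE 0.12, adjusted p = 0.00194), beside 5.32% of all genes and 31.6% of all factors, and EIF3G was the subunit called. EIF3B, EIF3D, EIF3I, EIF3J and EIF3L were called in none of the comparisons. Their log2 fold changes from con-2c to con-4c ran from -0.23 for EIF3L to 0.48 for EIF3J, and from con-2c to si-2c from -0.73 for EIF3L to 0.13 for EIF3J. EIF3F was called higher from con-2c to con-4c, 2.84 (SE 0.83, adjusted p = 0.0134), from a group mean of at most 0.83 CPM, and leaving out con-4c replicate 3 gave an adjusted edgeR p of 0.0709. Transcripts for subunits of the same complex thus differed in direction, EIF3G and EIF3A being high where EIF3E was low.

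**Figure D2:**
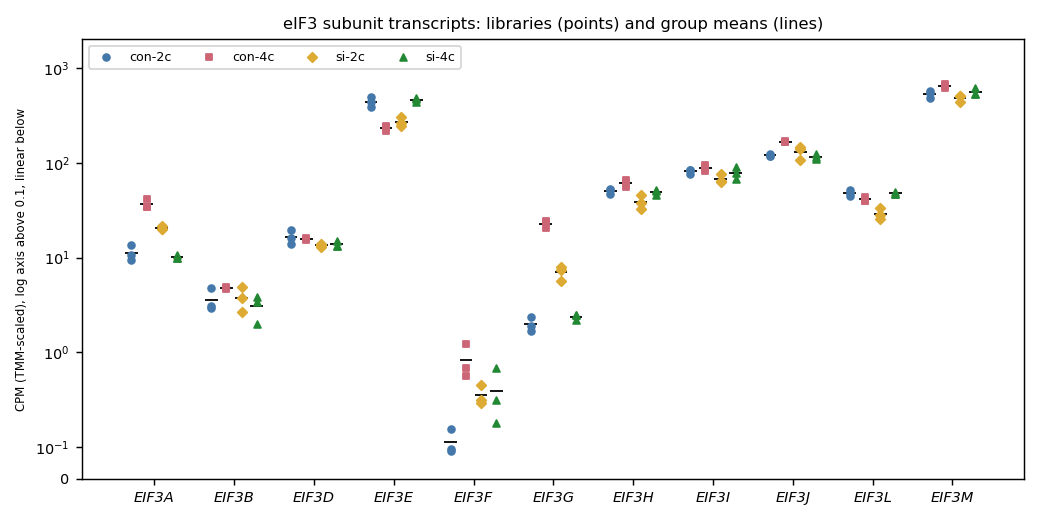
CPM of the 11 eIF3 subunit genes in every library (points) with group means (lines), on an axis that is logarithmic above 0.1 CPM and linear below. EIF3G and EIF3A are highest in con-4c, EIF3E is lowest in con-4c and si-2c, and EIF3M has means of 486.7 to 649.8 CPM.

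At the cap, EIF4G1, the main scaffold that joins the cap to the ribosome, was low in con-2c and si-4c and high in con-4c: 3.15, 3.36 and 4.95 CPM for the con-2c libraries, 17.3, 15.5 and 15.3 for con-4c, 9.53, 8.33 and 7.45 for si-2c and 3.57, 3.56 and 4.39 for si-4c. EIF4G1 rose from con-2c to con-4c, 2.07 (SE 0.19, adjusted p = 2.2e-07), and from con-2c to si-2c, 1.14 (SE 0.19, adjusted p = 0.000194), and fell from con-4c to si-4c, -2.06 (SE 0.19, adjusted p = 2.21e-07), in edgeR. Its relatives EIF4G2 and EIF4G3 were not called in any comparison. EIF4G2, which encodes a shorter scaffold that does not bind eIF4E and is used in cap-independent starts, stood at 799 ± 37.8 CPM for con-2c, 846 ± 17.9 for con-4c, 798 ± 29.98 for si-2c and 756 ± 19.4 for si-4c, with a 95% interval of -0.05 to 0.21 for its log2 fold change from con-2c to con-4c. EIF4G3 had -0.38 (SE 0.10, adjusted p = 0.00805), lower in con-4c and under the fold threshold.

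EIF4B, a helper of the eIF4A helicase, read 15.1, 16.2 and 15.2 CPM for the con-2c libraries, 30.9, 34.3 and 35.1 for con-4c, 30.3, 24.8 and 24.3 for si-2c and 16.8, 18.2 and 17.0 for si-4c. It rose from con-2c to con-4c, 1.11 (SE 0.11, adjusted p = 6.56e-07) in edgeR, and its -0.95 from con-4c to si-4c was just under the fold threshold. The helicase gene EIF4A2 stood at 179 ± 7.15 CPM for con-2c, 148 ± 14.2 for con-4c, 123 ± 17.4 for si-2c and 183 ± 5.73 for si-4c, and EIF4A3, a helicase of the exon junction complex, at 65.8 ± 4.48 CPM for con-2c, 54.6 ± 0.896 for con-4c, 38.5 ± 4.56 for si-2c and 66.9 ± 6.11 for si-4c. Both had lower si-2c than con-2c libraries, with log2 fold changes under the threshold of -0.54 and -0.77. EIF4A1 has only an identifier (ENSSSCG00000017957) in the table, so it stands outside the 59 genes. Under that identifier it stood at 148 ± 17.6, 342.5 ± 24, 176 ± 16.3 and 162 ± 17.9 CPM in the order used above (controls first, 2c before 4c), and rose by 1.21 (SE 0.10, adjusted p = 1.04e-07) from con-2c to con-4c in edgeR. It fell from con-4c to si-4c, -1.08 (SE 0.10, adjusted p = 3.88e-07), and was not called from con-2c to si-2c, 0.25 (adjusted p = 0.0785).

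EIF4E, the main cap-binding gene, stood at 81.3 ± 24.3 CPM for con-2c, 66.4 ± 9.02 for con-4c, 56.4 ± 7.59 for si-2c and 91.8 ± 1.29 for si-4c, and its log2 fold change was -0.29 (SE 0.16, adjusted p = 0.177) from con-2c to con-4c, -0.53 (SE 0.16, adjusted p = 0.0204) from con-2c to si-2c and 0.47 (SE 0.16, adjusted p = 0.0302) from con-4c to si-4c in edgeR, so none was called. EIF4E1B, a form of eIF4E found in eggs and early embryos, was measured at 15.9, 17.2 and 17.2 CPM for the con-2c libraries, 16.6, 14.4 and 15.0 for con-4c, 13.9, 15.3 and 11.6 for si-2c and 13.0, 14.7 and 12.3 for si-4c. Both si groups lay below con-2c without overlap, and con-4c overlapped con-2c, si-2c and si-4c. No comparison called it, and the 95% intervals of its log2 fold change were -0.39 to 0.13, -0.56 to -0.05 and -0.46 to 0.06 in the same 3 comparisons. EIF4E2, a repressive relative of eIF4E, and EIF4H, a helper of the helicase, were not called in any comparison. Their group means ran from 45.3 to 66.6 CPM for EIF4E2 and from 52.1 to 60.0 CPM for EIF4H.

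EIF4E3, a relative of eIF4E, was the factor that fell from con-2c to con-4c: 17.1, 11.6 and 12.6 CPM for the con-2c libraries, 5.99, 5.63 and 6.99 for con-4c, 9.38, 10.4 and 9.51 for si-2c and 12.7, 15.0 and 12.2 for si-4c. The log2 fold change was -1.15 (SE 0.17, adjusted p = 3.83e-05) in edgeR, and without con-2c replicate 1, the highest library, it was -0.97 and not called. It was -0.87 with library totals. EIF4E3 rose from con-4c to si-4c, 1.10 (SE 0.17, adjusted p = 6.06e-05), or 0.84 with library totals.

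The 4E inhibitors hold eIF4E away from its scaffold when growth signals are low. EIF4EBP1 read 43.3, 44.1 and 48.3 CPM for the con-2c libraries, 25.0, 27.5 and 23.6 for con-4c, 29.5, 29.4 and 18.7 for si-2c and 37.9, 45.0 and 45.5 for si-4c, with con-2c and si-4c above con-4c and si-2c in every library. Its log2 fold changes of -0.84 from con-2c to con-4c, -0.81 from con-2c to si-2c and 0.75 from con-4c to si-4c were below the fold threshold. EIF4EBP2 stood at 2.46 ± 0.465 CPM for con-2c, 3.10 ± 1.34 for con-4c, 4.41 ± 0.787 for si-2c and 2.97 ± 0.0953 for si-4c and was not called in any comparison.

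EIF4EBP3 had 0 counts in each con-2c library. The con-4c libraries held 12, 19 and 48 counts, those of si-2c 31, 14 and 21, and those of si-4c 9, 13 and 9. Against a floor of 3 counts over the con-2c group it was at least 28.1-fold higher in con-4c, at least 17.2-fold higher in si-2c and at least 9.94-fold higher in si-4c. All 3 contrasts passed edgeR's test, with adjusted p of 0.000272, 0.000836 and 0.0471. It was the only factor called higher than con-2c in both si groups. The call in si-4c rests on small counts and was lost in 11 of the 12 fits that left out 1 library, with an adjusted edgeR p of 0.049 to 0.141 over them. It was also lost with the replicate block, where the adjusted edgeR p was 0.112. With its value set to that bound the factors' medians were the same as with the fitted value.

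EIF6 keeps the large ribosomal subunit from joining too early. It read 18.0, 18.0 and 23.0 CPM for the con-2c libraries, 141, 133 and 154 for con-4c, 69.1, 80.8 and 54.1 for si-2c and 19.7, 18.4 and 17.2 for si-4c. The con-4c libraries were highest and si-2c next, without overlap, while con-2c and si-4c lay together. The log2 fold change was 2.86 (SE 0.14, adjusted p = 7.67e-11) from con-2c to con-4c, 1.79 (SE 0.14, adjusted p = 3.77e-08) from con-2c to si-2c and -2.96 (SE 0.14, adjusted p = 5.14e-11) from con-4c to si-4c in edgeR. From con-4c to si-2c EIF6 fell, -1.07 (SE 0.13, adjusted p = 5.2e-05), which library totals (-0.95) and leaving out si-2c replicate 3 (-0.93) took under the fold threshold. EIF5A2, the second gene for eIF5A, which helps ribosomes through difficult peptide bonds, stood at 44.3 ± 5.59 CPM for con-2c, 68.7 ± 3.90 for con-4c, 49.99 ± 7.50 for si-2c and 45.3 ± 2.63 for si-4c and was not called.

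Of the 5 elongation genes tested, 3 were called from con-2c to con-4c, all of them higher, beside 14.4% of all genes. EEF1B2 and EEF1D encode subunits of the factor that recharges eEF1A with GTP. EEF1B2 (chr15:109451901-109455529) read 12.5, 10.9 and 11.7 CPM for the con-2c libraries, 51.8, 50.4 and 57.2 for con-4c, 27.8, 28.8 and 29.1 for si-2c and 14.5, 12.2 and 12.4 for si-4c. The EEF1B2 transcript rose from con-2c to con-4c, 2.19 (SE 0.11, adjusted p = 9.2e-11), and from con-2c to si-2c, 1.29 (SE 0.11, adjusted p = 1.07e-07), and fell from con-4c to si-4c, -2.02 (SE 0.11, adjusted p = 2.03e-10), in edgeR. EEF1D was below 1 CPM in every group mean and was not called.

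EEF1E1, a small protein of the multi-tRNA synthetase complex related to the eEF1 family, stood at 18.2, 19.4 and 18.4 CPM for the con-2c libraries, 64.9, 78.0 and 75.2 for con-4c, 26.1, 28.2 and 31.1 for si-2c and 18.7, 22.2 and 21.4 for si-4c. It rose from con-2c to con-4c, 1.96 (SE 0.11, adjusted p = 3.42e-10), and fell from con-4c to si-4c, -1.81 (SE 0.11, adjusted p = 8.4e-10). It also fell from con-4c to si-2c, -1.35 (SE 0.11, adjusted p = 1.59e-06) in edgeR, while its 0.61 from con-2c to si-2c was under the fold threshold. EEF2, the translocase, read 14.8, 15.3 and 22.8 CPM for the con-2c libraries, 38.2, 35.8 and 36.3 for con-4c, 37.0, 29.8 and 30.8 for si-2c and 20.8, 23.5 and 25.4 for si-4c. It rose from con-2c to con-4c, 1.06 (SE 0.15, adjusted p = 2.6e-05) in edgeR, at the edge of the fold threshold: without con-2c replicate 1 or 2 it was 0.95 or 0.96.

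EEF1A1, which delivers aminoacyl-tRNA and belongs to a family with many processed copies, stood at 144 ± 17.2 CPM for con-2c, 169.7 ± 3.41 for con-4c, 184 ± 7.31 for si-2c and 173 ± 5.35 for si-4c and was not called in any comparison. Its log2 fold change was 0.24 (SE 0.08, adjusted p = 0.0368) from con-2c to con-4c. EEF1A2, the form of muscle and nerve, had 0 counts over the con-2c libraries and at most 7 over another group, and was not tested. The modifiers EEF2K, EEF1AKMT1, EEF1AKMT2, EEF1AKMT3 and EEF1AKMT4 were all below 9 CPM in every group mean, and none was called in any comparison. EEF2K, the kinase that inactivates eEF2, stood at 8.14 ± 0.929 CPM for con-2c, 6.15 ± 1.28 for con-4c, 7.13 ± 1.15 for si-2c and 7.82 ± 1.59 for si-4c.

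Of the 3 termination genes, ETF1 and GSPT1 rose from con-2c to con-4c, beside 14.4% of all genes. ETF1, which encodes the release factor that reads stop codons, stood at 5.70, 4.84 and 6.06 CPM for the con-2c libraries, 40.7, 37.6 and 39.7 for con-4c, 20.1, 14.4 and 19.98 for si-2c and 6.12, 7.40 and 5.97 for si-4c. The con-4c libraries were highest, si-2c intermediate, and con-2c and si-4c overlapped. ETF1 rose from con-2c to con-4c, 2.83 (SE 0.15, adjusted p = 2.77e-10), and from con-2c to si-2c, 1.72 (SE 0.15, adjusted p = 2.15e-07), and fell from con-4c to si-4c, -2.60 (SE 0.15, adjusted p = 6.56e-10), in edgeR. From con-4c to si-2c it was -1.11 (SE 0.14, adjusted p = 7.97e-05). Without si-2c replicate 2 that value was -0.97, and with library totals it was -0.98.

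GSPT1, the gene of the GTPase eRF3 that works with ETF1, read 28.8, 25.2 and 28.5 CPM for the con-2c libraries, 49.0, 62.4 and 54.5 for con-4c, 35.0, 39.4 and 46.6 for si-2c and 30.9, 33.0 and 32.1 for si-4c. It rose from con-2c to con-4c, 1.01 (SE 0.12, adjusted p = 3.08e-06), close to the fold threshold: without con-2c replicate 2 it was 0.94 and without con-4c replicate 2 it was 0.91. GSPT2, a retrocopy, was below 1 CPM in every group mean and was not called.

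Across title stages the knockdown libraries share no library with the controls, so the stage difference could be set against the control difference. From si-2c to si-4c 1 factor (1.75%) rose and 9 (15.8%) fell, beside 1.47% and 11.9% of all genes. With no fold threshold the balance was even, 13 higher and 13 lower (22.8% each), beside 12.1% and 16.9% of all genes. With library totals 0 were called higher and 9 lower, beside 0.278% and 17.2%. The 9 that fell were all among the 16 that rose from con-2c to con-4c, so 56.2% of the 16 and 100% of the 9 are shared. Over all genes the shares were 62.1% and 75.6%. Of the 57 factors, 50 (87.7%) had opposite signs in the 2 stage differences, against 77% of all genes. No factor was called higher in both.

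**Figure D3:**
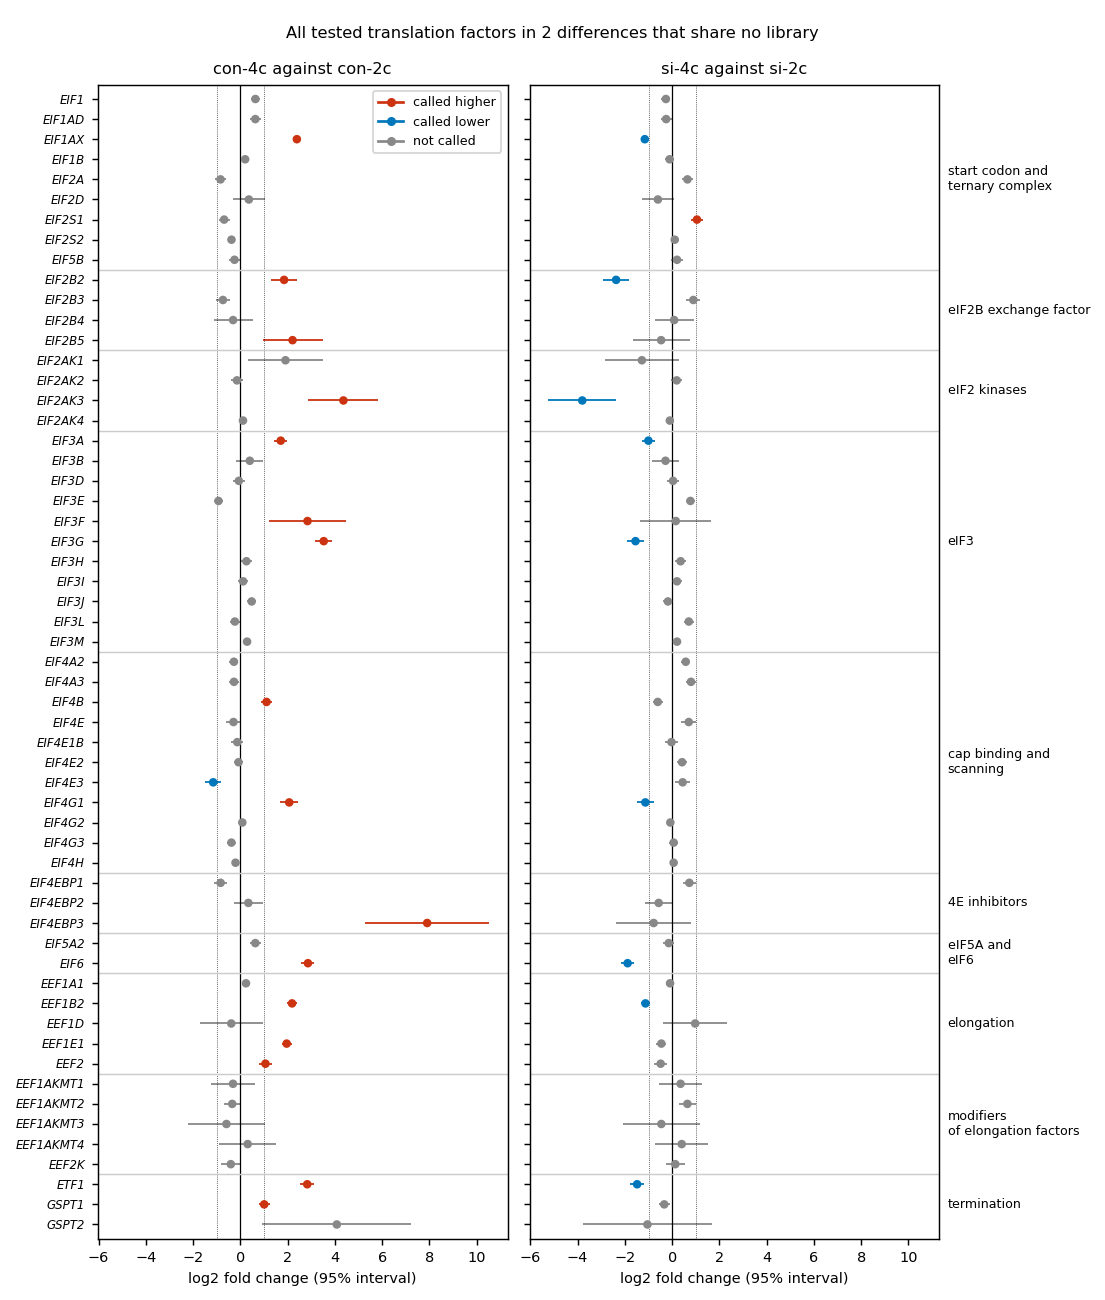
Log2 fold change of the 57 tested factors, by role, from con-2c to con-4c (left) and from si-2c to si-4c (right), which share no library. Points are edgeR estimates, bars are 95% intervals, dotted lines mark a log2 fold change of 1 in either direction, and colours mark called genes. EIF1AX lies at 2.39 on the left and -1.16 on the right.

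In 14 of 57 factors (24.6%) all 6 con-4c and si-2c libraries lay above all 6 con-2c and si-4c libraries, and in 10 (17.5%) they lay below. Over all genes the shares were 15.3% and 9.63%. The 14 were EIF1, EIF1AX, EIF2AK3, EIF2B2, EIF3A, EIF3G, EIF4B, EIF4G1, EIF6, EEF1B2, EEF1E1, EEF2, ETF1 and GSPT1. The 10 were EIF2A, EIF2B3, EIF2S1, EIF3E, EIF3L, EIF4A2, EIF4A3, EIF4E3, EIF4EBP1 and EEF1AKMT2.

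The title and tissue label disagree, so the groups were also compared across titles. From con-2c to si-4c 1 factor (1.75%, EIF4EBP3) was higher and none lower, beside 0.0333% and 0.3% of all genes. At an unadjusted edgeR p under 0.05 there were 6 higher and 2 lower, beside 4.95% and 6.35% of all genes, and DESeq2 called 1 higher and 0 lower, beside 0.239% and 0.751%. Of the 56 that were not called, 44 had an interval within 1 of 0. From con-4c to si-2c none rose and 4 fell (7.02%): EEF1E1, EIF3G, EIF6 and ETF1. Over all genes 0.161% rose and 1.63% fell. At an unadjusted edgeR p under 0.05 there were 3 higher and 22 lower (38.6%), beside 8.07% and 11.3% of all genes. DESeq2 called 0 higher and 4 lower of the 52 factors to which it gave an adjusted p, beside 0.212% and 2.76% of such genes. With library totals 0 were higher and 2 (3.51%) lower, beside 0.333% and 1.19%. The median log2 fold change there was -0.31 for the factors and -0.02 for all genes.

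At an adjusted edgeR p below 0.05 alone, with no fold threshold, 18 of 57 factors (31.6%) were lower from con-4c to si-2c, beside 5.32% of all genes, and 1 (1.75%) was higher, beside 2.22%. With library totals 12 (21.1%) were lower, beside 3.45%. The factors' median lay -0.24 to -0.32 from the median of all genes over the scalings, filters, block and left-out libraries tried.

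**Figure D4:**
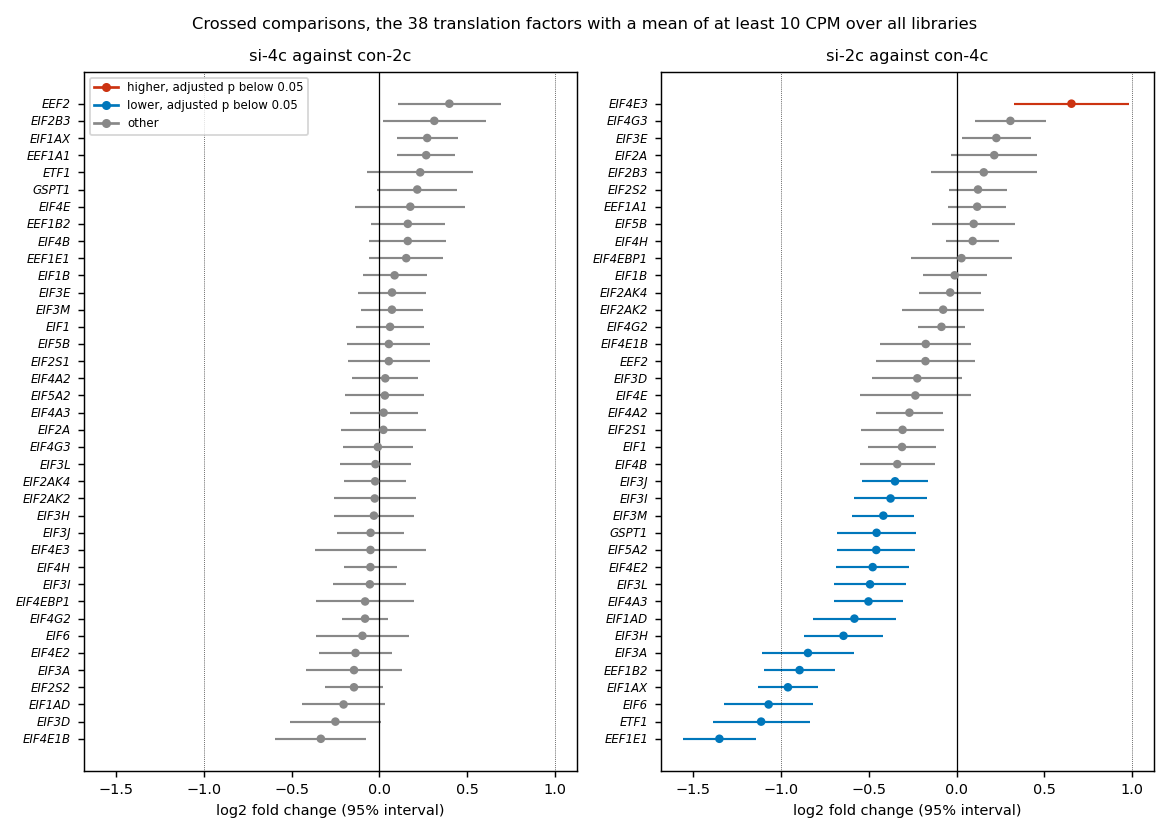
Log2 fold change of the 38 factors with a mean of at least 10 CPM over all libraries, from con-2c to si-4c (left) and from con-4c to si-2c (right), each sorted by value. Points are edgeR estimates, bars are 95% intervals, and colours mark an adjusted p below 0.05 at any fold. On the left none of these factors is coloured, and on the right EEF1E1 lies lowest at -1.35.

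The average knockdown effect, which is the mean of both si groups against the mean of both con groups, does not depend on which stage label is right. Differences of opposite sign under the 2c and 4c titles cancel in it, so it does not show that a factor is unchanged by the knockdown. EIF1AX had 1.43 from con-2c to si-2c and -2.12 from con-4c to si-4c, but -0.34 in the average. No factor was called (0%), beside 0.05% of all genes higher and 0.7% lower. At an unadjusted edgeR p under 0.05 there were 6 higher and 20 lower (35.1%), beside 7.14% and 10.5% of all genes, and DESeq2 called 1 higher and 0 lower, beside 0.26% and 1.28%. With library totals 1 was called higher and 0 lower, beside 0.0611% and 0.595%. With no fold threshold 0 factors were higher and 10 (17.5%) lower, beside 1.36% and 3.64% of all genes. On that rule, with library totals 7 were lower and 1 higher, beside 2.25% and 2.45% of all genes, and with DESeq2 14 were lower and 2 higher, beside 5.71% and 2.26%. The factors' median was -0.12 and that of all genes -0.01, or -0.05 and 0.06 with library totals.

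The interaction asks whether the knockdown difference itself differs between titles. It was called for 23 factors, 7 (12.3%) higher and 16 (28.1%) lower, beside 9.87% and 22.5% of all genes. The log2 value is the si-4c minus si-2c difference minus the con-4c minus con-2c difference. For EIF1AX it was -3.55 (SE 0.13, adjusted p = 7.36e-13) in edgeR. With library totals 2 were higher and 25 lower (43.9%), beside 3.19% and 33.6% of all genes, and with no fold threshold 15 (26.3%) were higher and 21 (36.8%) lower, beside 18.2% and 27.3%.

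EIF1AX can be placed among the other factors by these values. From con-2c to con-4c its log2 fold change was the 8th highest of 57 factors, and from con-2c to si-2c the 9th highest. It was the 7th lowest from con-4c to si-4c, from si-2c to si-4c and from con-4c to si-2c. Its p was the smallest of all 57 factors from con-2c to con-4c, from con-2c to si-2c, from con-4c to si-4c and the interaction. It was not the smallest elsewhere: EIF6 had a smaller p from si-2c to si-4c, EEF1E1 from con-4c to si-2c and in the average effect, and EIF4EBP3 from con-2c to si-4c, where EIF1AX had the 8th highest log2 fold change. In the average effect it had the 13th lowest. EIF6, ETF1 and EIF3G had larger log2 fold changes than EIF1AX from con-2c to con-4c, and so did EIF4EBP3, EIF2AK3, GSPT2 and EIF3F at low counts.

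Other genes of translation control gave a wider setting, and 58 of 64 on a list of mRNA-binding proteins, recycling factors, mTOR pathway and stress genes were in the table and tested. From con-2c to con-4c 10 were called, all higher, from con-2c to si-2c 7 were called, all higher, and from con-4c to si-4c 1 rose and 13 fell. Over all genes 14.4% and 10.7% were called higher in the first and the second of these comparisons, and 3.12% higher and 15.8% lower in the third. DENR, a factor that recycles ribosomes and allows reinitiation, stood at 2.204 ± 0.395 CPM for con-2c, 45.6 ± 2.81 for con-4c, 14.2 ± 2.99 for si-2c and 2.62 ± 0.486 for si-4c and had a log2 fold change of 4.37 (SE 0.19, adjusted p = 2.01e-11) from con-2c to con-4c in edgeR. TPT1, whose mRNA is a classical target of the mTOR pathway, stood at 9.17 ± 1.74 CPM for con-2c, 56.8 ± 3.65 for con-4c, 24.7 ± 3.51 for si-2c and 9.10 ± 0.540 for si-4c and had 2.63 (SE 0.14, adjusted p = 3.21e-10). PABPC1, the poly(A)-binding protein that links the tail to eIF4G, stood at 1.18 ± 0.860 CPM for con-2c, 17.5 ± 2.27 for con-4c, 11.3 ± 0.390 for si-2c and 0.865 ± 0.311 for si-4c and had 3.88 (SE 0.36, adjusted p = 2.52e-07). DDIT3, a stress gene, stood at 56.8 ± 2.84 CPM for con-2c and 143 ± 6.98 for con-4c. It stood at 76.5 ± 16.4 CPM for si-2c and 60.5 ± 3.66 for si-4c. Its log2 fold change from con-2c to con-4c was 1.33 (SE 0.12, adjusted p = 2.39e-07) in edgeR. These genes were high in con-4c and low in con-2c and si-4c.

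PDCD4, an inhibitor of the eIF4A helicase, was the listed gene that rose from con-4c to si-4c, 1.09 (SE 0.09, adjusted p = 8.85e-08) in edgeR. It stood at 197 ± 26.7 CPM for con-2c, 104 ± 2.74 for con-4c, 119.8 ± 8.82 for si-2c and 221 ± 1.01 for si-4c. From con-4c to si-2c 2 of these 58 genes were called, both lower, beside 1.63% of all genes.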

How the data were processed

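Counts per gene were deposited by the authors for 12 SMART-seq libraries of pooled pig embryos, not normalized. The submitters' processing notes name cutadapt 1.9, HISAT2 2.2.1, StringTie 2.1.6, DESeq2 and edgeR and the build Sscrofa11.1. Which annotation release was counted, whether strand was used and how reads that fit several genes were handled are not given in the sources used here, so near-identical copies and overlapping or antisense genes may share reads. Groups follow the sample titles. The 27785233 to 39510908 counts per library limit precision mainly below 1 CPM.

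Genes were filtered with filterByExpr by group, scaled by TMM and tested on the counts with edgeR 4.0.16 (glmQLFit and glmQLFTest, R 4.3.3) in 1 fit of 4 group means over 12 libraries, with Benjamini-Hochberg adjustment over all 17995 genes tested. A call needed an adjusted p below 0.05 and a log2 fold change of at least 1 in size. Each standard error is the absolute log2 fold change over the root of the F statistic. CPM used TMM-scaled library sizes and were not divided by transcript length, so levels are compared between groups and not between genes. Tests are two-sided. The steps were first tested on simulated data in which a small set of genes changed in si-2c only, as many up as down. That simulation did not hold the one-sided differences between groups seen here, so it does not test the scaling against them. Gene positions are those of RefSeq on Sscrofa11.1, matched by symbol for 55 of 59 factors.

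Members and lists were chosen with earlier results of these data known. Values in every library or full statistics were given for up to 8 called factors per direction from con-2c to con-4c, from con-2c to si-2c and from con-4c to si-4c by smallest p among those whose higher group averaged 10 CPM or more, up to 4 in the other comparisons, 16 listed factors whatever their values (EIF5A was not analysed here), and the factor with the most reads of each role. Other factors described at low counts (EIF2B2, EIF2B5, EIF2AK3, EIF3F, EIF4EBP3) and at any level were chosen after their values were seen. Of the related genes, up to 4 per direction were named. Alternatives were library totals, RLE factors, DESeq2 1.42.0, no low-count filter, no minimum fold, a fit of the compared groups only, a replicate block, leaving out each library and, chosen after seeing the data, a filter of at least 1 CPM in at least 3 libraries.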

Additional observations from a re-analysis of the deposited data

Results flagged for a closer look

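In 23 factors the difference between si-4c and si-2c differed from that between con-4c and con-2c by edgeR's interaction test (adjusted p below 0.05 over all genes and a log2 value of at least 1 in size). Over all genes 9.87% were called higher and 22.5% lower by this test. The interaction uses all 4 groups, so its values rest on the same libraries as the comparisons above. 16 factors were lower. The log2 interaction was -8.17 for EIF2AK3, -5.08 for EIF3G, -4.74 for EIF6, -4.31 for ETF1, -4.22 for EIF2B2 and -3.55 for EIF1AX. It was -3.32 for EEF1B2, -3.20 for EIF4G1, -3.19 for EIF2AK1, -2.71 for EIF3A, -2.67 for EIF2B5 and -2.42 for EEF1E1. EIF4B stood at -1.72, EEF2 at -1.55 and GSPT1 at -1.34. For EIF4EBP3 the fitted value was -8.69, which depends on the prior count because con-2c holds 0 counts, and is no bound.

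7 factors were higher, with 1.74 for EIF2S1, 1.70 for EIF3E, 1.64 for EIF2B3, 1.59 for EIF4E3, 1.56 for EIF4EBP1, 1.49 for EIF2A and 1.07 for EIF4A3. With library totals EIF4E3 (0.94), EIF2A (0.83), EIF4EBP1 (0.92), EIF2B3 (0.98) and EIF4A3 (0.40) were under the fold threshold. EIF2AK1 lost its call without con-4c replicate 1, con-4c replicate 2, si-2c replicate 3 or si-4c replicate 3, EIF2B5 without con-2c replicate 1 or si-2c replicate 2, and EIF4A3 without si-4c replicate 1. The title and tissue labels disagree in all 12 libraries, so the stage to which each difference belongs was not settled.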

How the results depend on the processing

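Over 1415 recomputed values of 76 calls of single factors, none changed sign, 1369 kept their call and 46 lost it. Library totals lost 11 of the 76, and DESeq2, RLE factors, the fit of compared groups only and the stricter filter chosen after seeing the data lost none of those they tested. With library totals the counts were 0 lower from con-2c to con-4c, 15 higher from con-2c to si-2c, 0 higher from con-4c to si-4c, 0 higher from si-2c to si-4c, 2 lower from con-4c to si-2c, 2 higher and 25 lower in the interaction and 1 higher in the average effect. With no minimum fold they were 11 lower from con-2c to con-4c, 17 higher and 14 lower from con-2c to si-2c, 11 higher and 17 lower from con-4c to si-4c, 13 higher from si-2c to si-4c, 1 higher and 18 lower from con-4c to si-2c, 15 higher in the interaction and 10 lower in the average effect. DESeq2 called 1 higher in the average effect. The factor higher from con-2c to si-4c (EIF4EBP3) gave a count of 0 with the compared groups only and the stricter filter, where it was not among the genes tested, 0 with the replicate block, and 0 to 1 over the fits that left out a library. Leaving out a library gave 0 to 2 lower from con-2c to con-4c, 0 to 1 lower from con-2c to si-2c and 0 to 1 higher from si-2c to si-4c. The shares of all genes under library totals and with no minimum fold stand beside these comparisons in the text above. They were not computed for the compared groups only, the stricter filter, the replicate block or the left-out libraries. Those counts are thus not set against all genes. The cause of these moves was not tested.

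Deviations of same-numbered libraries correlated at -0.0495 to 0.029 over 18 pairs, none over 0.1, so the numbers do not pair the libraries. With the replicate block the counts were 17 higher from con-2c to con-4c and 17 lower in the interaction, against 16 and 16 without it. No share of all genes was computed with the block, so these counts are not set against one. The interaction and the average effect were not run with the compared groups only. Factors under 1 CPM, such as EEF1D, GSPT2 and EIF3F, have 95% intervals that reach more than 1 to either side on the log2 scale.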
